A study of Saccharomyces cerevisiae with 12 samples.

Results

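The genes described here are 31 budding yeast genes for the synthesis of histidine, leucine, isoleucine and valine, lysine and tryptophan, together with GCN4, the gene of their common activator. They were taken by name from the protein-coding genes of the deposited table and are 31 of its 5798 genes. The set holds 7 histidine genes, 4 leucine genes, 5 isoleucine and valine genes, 2 branched-chain transaminase genes, 7 lysine genes, 5 tryptophan genes and GCN4. All 31 passed the filter on low values in every comparison.

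Gcn4 is a transcription activator that binds upstream of genes in most amino acid synthesis pathways of yeast, a program known as general amino acid control. Its amount is set mainly at translation: short open reading frames in the GCN4 leader keep it low until amino acid shortage activates the kinase Gcn2, so the GCN4 mRNA level is not a measure of Gcn4 protein. Single pathways also have activators of their own, among them Leu3 for leucine and branched-chain genes and Lys14 for lysine genes, each of which responds to an intermediate of its pathway.

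RNA from Saccharomyces cerevisiae was sequenced in 12 strand-specific total RNA libraries, 2 biological replicates in each of 6 groups. Wild type with FU (5-fluorouracil, named in the title of the series), the rrp6-delta mutant, called rrp6 here, and untreated wild type (WT) were each taken at 100 min and at 40 min, all timed after synchronization. 5-fluorouracil is a pyrimidine analog used against cancer, and Rrp6 is the nuclear exonuclease of the RNA exosome, which degrades cryptic transcripts. Labels give neither the dose of FU, nor the way of synchronization, nor the strain background and its selectable markers.

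The libraries held 20102931 to 27498217 reads over all features. Members had 159 to 52979 reads in a library, so no auxotrophic marker gene among them was at 0, and the spread between replicates rather than counting limits their values. RRP6 had a density of 0.0507 to 0.0781 in the rrp6 libraries, against 0.868 to 1.30 in WT libraries. Genes specific to a cells and to alpha cells all had densities of at most 0.365, and the ploidy is not given in the labels. Some of these markers moved with the groups. At 100 min 6 of 7 a-specific genes were higher in the mutant (4 with the median of ratios). Of the 4 alpha-specific genes 2 were higher and 2 lower there (0 and 2 with the median of ratios). With FU at 100 min 1 of 7 a-specific genes was higher and 1 of 4 alpha-specific genes lower (0 and 1 with the median of ratios). That alpha-specific gene, MF(ALPHA)1, had 0.0207 and 0.0331 with FU at 100 min and 0.0227 and 0.0311 in the mutant, against 0.305 and 0.363 in WT. SAG1, another alpha-specific gene, was not called with FU at 100 min, with 0.0817 and 0.113, against 0.0479 and 0.0611 in WT. The part of these markers in the results below was not tested. Small nucleolar RNAs took 20.9% of the reads in replicate 2 with FU at 40 min and 20.2% in replicate 2 of WT at 40 min, against 9.99% to 15.4% in the other 10 libraries. At 40 min 27 of 31 members with FU and 25 of 31 in WT were higher in replicate 1 than in replicate 2, with a median difference of 0.54 with FU and 0.43 in WT on the log2 scale. Over all genes tested that median was 0.205 with FU and 0.293 in WT. In the mutant at 40 min the count was 24 of 31, with a median of 0.286, against 0.025 over all genes. At 100 min the counts were 14 with FU, 21 in the mutant and 20 in WT. The part of these library differences in the results below was not tested.

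The DNA motif of Gcn4, TGACTCA on either strand, was searched in the 500 bases before the start codon of each gene (RefSeq, build R64, whose gene positions equal those of the table for all 31 members). It occurred before 15 of the 31 members (48.4%), against 236 of all 5767 windows searched (4.09%). The shorter core TGACTC, which is contained in the longer motif, occurred before 20 members (64.5%, against 12.9% of all windows), HIS3 and TRP4 among those that hold only the core. The Leu3 motif CCGNNNNCGG lay before LEU9, LEU1, LEU2, ILV2, ILV5, BAT1 and BAT2, 7 members (22.6%, against 3.28% of all windows). The Lys14 motif TCCNNNGGA lay before LEU9, LYS21, LYS12, LYS9, LYS1 and TRP3, 6 members (19.4%, against 6.05%). A match describes these letters only and is no measure of binding. The sites below belong to the members with the full motif whose levels changed with time or in the mutant, and to HIS4, the textbook Gcn4 gene. Each is read 5′ to 3′ on the strand of the gene, with the motif in capitals, and TGAGTCA is the same motif on the opposite strand.
HIS1 (chr5:265953-265979, minus strand): agcttccaagTGAGTCAcctctaccgt
HIS7 (chr2:716680-716706, minus strand): aaaaaaaaatTGAGTCAtatcgtagct
HIS4 (chr3:68516-68542, minus strand): ccatgcacagTGACTCAcgttttttta
HIS5 (chr9:142716-142742, plus strand): ttggatctgtTGACTCActtcaattga
LEU4 (chr14:426839-426865, minus strand): tacgtgtaagTGACTCAgttctttcaa
LEU9 (chr15:522760-522786, plus strand): tcgtagtgaaTGACTCAtatttttcca
ILV6 (chr3:105682-105708, minus strand): accgttatcgTGACTCActttctttcg
ILV5, distal (chr12:839548-839574, minus strand): tggctgtcagTGACTCAtccgcgtttc
ILV5, proximal (chr12:839377-839403, minus strand): tgacctaactTGACTCAatggctttta
LYS2 (chr2:474104-474130, minus strand): ttttcgcgtgTGACTCAatgtcgaaat
LYS1 (chr9:420970-420996, minus strand): actaagtcgaTGAGTCAaaaaagactc
TRP3 (chr11:38260-38286, minus strand): aatggctcgtTGACTCAttctaatcta
The proximal ILV5 motif starts 140 bases before the start codon, the HIS4 motif 199 bases and the LEU4 motif 101 bases.

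Levels are given as the deposited density, the reads of a gene divided by its length and scaled so that all genes of a library sum to 14370740. In WT at 100 min the highest member was ILV5, the acetohydroxyacid reductoisomerase, at 30.6 ± 4.31 (SD, n = 2), followed by GCN4 at 15.5 ± 1.67. HIS1, ILV3 and ILV6 came next at 8.47 ± 0.918, 8.17 ± 0.359 and 7.76 ± 0.941, and these neighbours did not differ beyond their spread. The lowest members were HIS2 at 0.398 ± 0.0493 and LYS1 at 0.343 ± 0.0604, which also overlap. The members thus span a wide range of levels, and the map of all members by library shows that they do not move as a block: most histidine and tryptophan genes were highest at 100 min, while ILV5, LEU2 and LYS9 were lowest in the rrp6 libraries. In RNA from whole cultures, fewer cells with a transcript and less transcript per cell cannot be told apart.

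**Figure D1:**
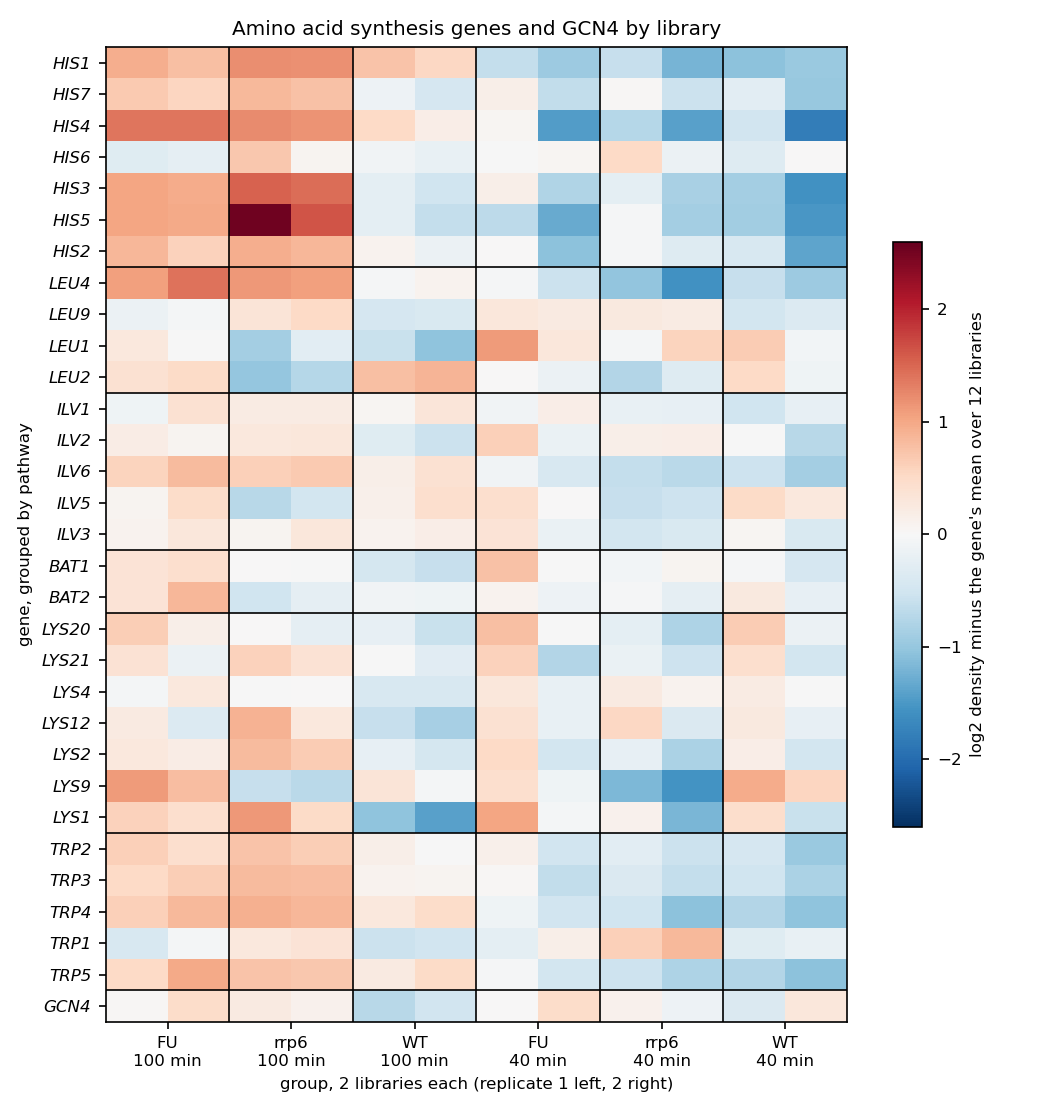
Log2 density of each member minus its own mean over the 12 libraries (colour), with members in rows grouped by pathway and libraries in columns. HIS5 reached its highest density, 4.50, in replicate 1 of the rrp6 mutant at 100 min, and LYS9 its lowest, 0.593, in replicate 2 of the rrp6 mutant at 40 min.

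Deletion of RRP6 was associated with unequal changes within the pathways. At 100 min 12 of 31 members were higher in the rrp6 mutant than in WT and 3 were lower, and at 40 min 2 were higher and 3 lower (adjusted p under 0.05 in the limma fit over all features). Among all genes tested, 34.5% were higher and 5.15% lower at 100 min, and 32.3% higher and 5.26% lower at 40 min, so the members' upward share lay near this background at 100 min and below it at 40 min. The scaling to the sum over genes puts the median gene at 0.45 (log2) in the mutant over WT at both times. The members' median difference was 0.62 at 100 min and 0.07 at 40 min, which is 0.17 above the median gene at 100 min and 0.39 below it at 40 min. At 40 min 25 of 31 members lay below the median gene, and at 100 min 11 of 31.

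LYS9, LEU2 and ILV5 were lower in the mutant at both times. LYS9, the saccharopine dehydrogenase that makes saccharopine, the last intermediate before lysine, had densities of 0.783 and 0.593 in rrp6 libraries at 40 min, against 3.41 and 2.56 in WT libraries at 40 min. At 100 min LYS9 stood at 1.15 and 1.07 in rrp6 libraries, against 2.21 and 1.69 in WT libraries. The groups did not overlap at either time. LYS9 fell by 2.10 ± 0.25 on the log2 scale at 40 min (SE, adjusted p = 0.000166) and by 0.79 ± 0.25 at 100 min (adjusted p = 0.0216). At 100 min the adjusted p was 0.144 without replicate 1 of WT, 0.0646 without replicate 1 of the mutant and 0.1 without replicate 2 of the mutant.

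LEU2, the isopropylmalate dehydrogenase gene and a common auxotrophic marker, had densities of 0.203 and 0.245 in rrp6 libraries at 100 min, against 0.699 and 0.752 in WT libraries. At 40 min LEU2 stood at 0.240 and 0.324 in rrp6 libraries, against 0.581 and 0.378 in WT libraries. All rrp6 values lay below all WT values of the same time. The fall was 1.65 ± 0.24 at 100 min (log2 fold change -1.65, adjusted p = 0.000403) and 0.73 ± 0.24 at 40 min (log2 fold change -0.73, adjusted p = 0.0275). ILV5 had 15.1 and 18.1 in rrp6 libraries at 100 min, against 27.5 and 33.6 in WT libraries, and 16.4 and 17.3 in rrp6 libraries at 40 min, against 35.3 and 30.3 in WT libraries. ILV5 changed by -0.88 ± 0.23 at 100 min (adjusted p = 0.00833) and by -0.96 ± 0.23 at 40 min (adjusted p = 0.00585), so the most abundant member was also among those that fell. LEU2 at 40 min missed the threshold without replicate 1 of WT (adjusted p = 0.158) or of the mutant (0.188), and ILV5 at 100 min without replicate 2 of WT (0.0678) or replicate 1 of the mutant (0.067). Of the 7 members with the Leu3 motif, LEU2 and ILV5 were lower at 100 min, LEU9 was higher, and LEU1, ILV2, BAT1 and BAT2 were not called. Of the 6 with the Lys14 motif, LYS9 was lower, LEU9, LYS12, LYS1 and TRP3 were higher, and LYS21 was not called.

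Of the members higher in the mutant at 100 min, 4 were among the 7 histidine genes, 3 among the 7 lysine genes, 2 among the 4 leucine genes and 2 among the 5 tryptophan genes, and the last was GCN4. HIS5, the histidinol-phosphate aminotransferase, had densities of 4.50 and 2.41 in rrp6 libraries, against 0.656 and 0.511 in WT libraries, and rose by 2.48 ± 0.38 (adjusted p = 0.000546). HIS3, the imidazoleglycerol-phosphate dehydratase and another common marker, had 4.59 and 4.35 in rrp6 libraries, against 1.34 and 1.12 in WT libraries, and rose by 1.86 ± 0.33 (adjusted p = 0.00117). LYS1, the last enzyme of lysine synthesis, had 1.74 and 1.12 in rrp6 libraries, against 0.386 and 0.300 in WT libraries, and rose by 2.00 ± 0.51 (adjusted p = 0.00763). In all 3 the lowest rrp6 value was above the highest WT value, and these 3 were also the members called higher when densities were scaled by the median of ratios, which takes the median gene as unchanged. LYS1 missed the threshold without replicate 1 of the mutant (adjusted p = 0.057).

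Of the other 9, HIS1, the enzyme of the first step of histidine synthesis, had 12.6 and 12.3 in rrp6 libraries, against 9.12 and 7.82 in WT libraries (0.56 ± 0.22, adjusted p = 0.0478). HIS7, a glutamine amidotransferase and cyclase, had 1.10 and 1.04 in rrp6 libraries, against 0.555 and 0.454 in WT libraries (1.07 ± 0.32, adjusted p = 0.0159). Both rose without overlap. LYS12, the homoisocitrate dehydrogenase, had 7.94 and 5.15 in rrp6 libraries, against 2.81 and 2.31 in WT libraries (1.32 ± 0.37, adjusted p = 0.0121). LYS2, the aminoadipate reductase, had 3.24 and 2.93 in rrp6 libraries, against 1.60 and 1.34 in WT libraries (1.07 ± 0.34, adjusted p = 0.0229). The lysine pathway thus held 3 genes that rose and 1, LYS9, that fell. LEU4, the main isopropylmalate synthase, had 8.07 and 7.76 in rrp6 libraries, against 3.64 and 3.97 in WT libraries (1.06 ± 0.25, adjusted p = 0.00492). Its paralog LEU9 had 4.99 and 5.69 in rrp6 libraries, against 2.93 and 3.02 in WT libraries (0.84 ± 0.14, adjusted p = 0.000776). The leucine pathway thus held 2 genes that rose and 1, LEU2, that fell. TRP3, part of anthranilate synthase, had 2.06 and 2.03 in rrp6 libraries, against 1.25 and 1.24 in WT libraries (0.71 ± 0.22, adjusted p = 0.019). TRP1, the phosphoribosylanthranilate isomerase, had 1.02 and 1.07 in rrp6 libraries, against 0.569 and 0.590 in WT libraries (0.83 ± 0.19, adjusted p = 0.00496). GCN4 itself had 27.7 and 25.4 in rrp6 libraries, against 14.3 and 16.7 in WT libraries (0.78 ± 0.27, adjusted p = 0.0341). None of these 9 was called with the median of ratios, where their log2 differences were 0.08 for HIS1, 0.29 for GCN4 and up to 0.84 for LYS12.

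At 40 min the 2 members that were higher in the mutant were TRP1, with 1.29 and 1.50 in rrp6 libraries, against 0.677 and 0.736 in WT libraries (0.97 ± 0.19, adjusted p = 0.00249), and LEU9, with 4.74 and 4.59 in rrp6 libraries, against 2.85 and 3.09 in WT libraries (0.65 ± 0.14, adjusted p = 0.00326). GCN4 had 25.4 and 21.5 in rrp6 libraries, against 18.3 and 28.7 in WT libraries, and these groups overlap. With the median of ratios the split at 40 min turned to 0 higher and 8 lower (0 and 11 by unadjusted p), with LEU4, ILV3, BAT2, LYS20 and LYS2 added to the 3 that fell. At 100 min it was 3 higher and 4 lower, with BAT2 added. Among the 5725 genes tested, that scaling gave 703 higher and 760 lower at 40 min, and 924 higher and 893 lower at 100 min. The share of all genes at the unadjusted p was not counted. At 100 min 8 members were called without replicate 2 of WT, 6 without replicate 1 of the mutant and 9 without replicate 2 of the mutant, against 15 with all libraries. HIS1, LYS2, TRP3 and GCN4 were lost without either replicate of WT or of the mutant at 100 min, HIS1 also without either replicate of FU at 100 min, HIS7 without replicate 2 of WT or either replicate of the mutant, and LYS12 without replicate 2 of WT or replicate 1 of the mutant. HIS3, HIS5 and LEU2 at 100 min and LYS9 at 40 min were called in every alternative run.

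**Figure D2:**
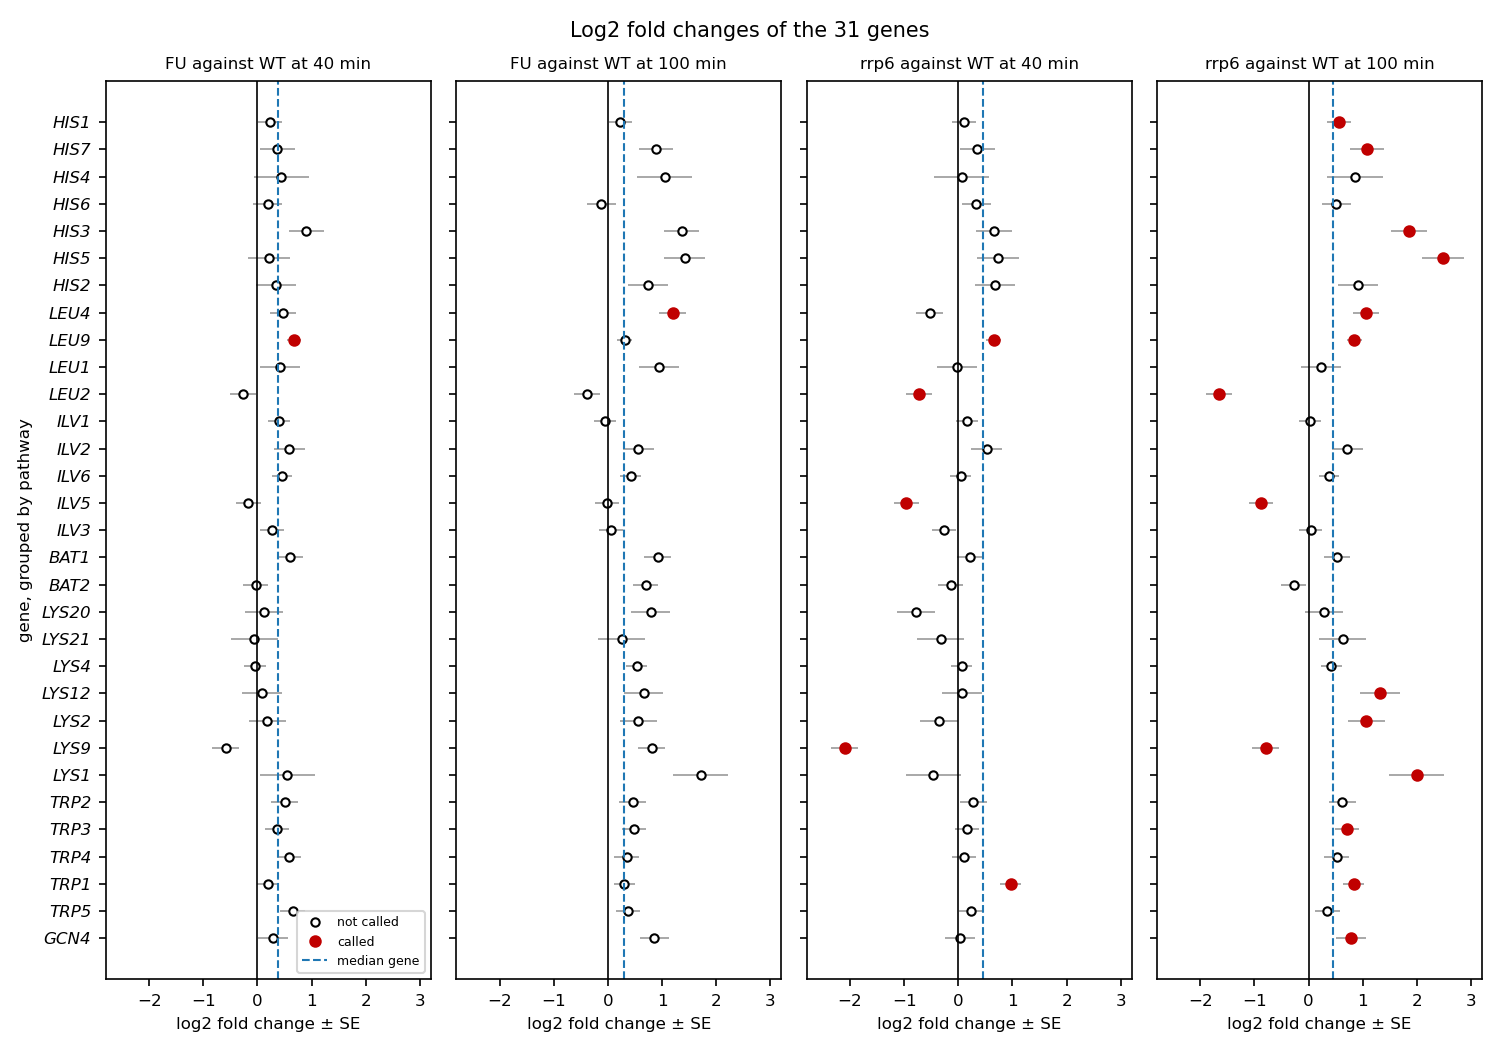
Log2 fold change (x axis, bars are SE) of each member in 4 comparisons with WT, with filled points for members called at an adjusted p under 0.05 and a dashed line at the median gene. LYS9, LEU2 and ILV5 lie on the negative side in both rrp6 panels, and HIS5, at 2.48, lies farthest to the right at 100 min.

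LEU4 was higher with FU than in WT at 100 min and LEU9 at 40 min, and no other member passed the test at either time. With a replicate block 6 members were called at 100 min and 3 at 40 min, and the share of all genes called with the block was not counted. Same-numbered FU and WT libraries deviated together from their group means, with a correlation over genes of 0.351 at 100 min and 0.869 at 40 min. In the main fit, without the block, 1.94% of all genes tested were higher and 0.769% lower at 100 min. At 40 min 1.34% were higher and 0.454% lower. The scaling puts the median gene at 0.30 at 100 min and 0.37 at 40 min. The members' median difference was 0.56 at 100 min, 0.27 above the median gene, and 0.34 at 40 min, 0.03 below it, and 24 of 31 members lay above the median gene at 100 min, against 13 of 31 at 40 min.

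LEU4 had densities of 7.74 and 9.85 with FU at 100 min, against 3.64 and 3.97 in WT, without overlap (1.20 ± 0.25, adjusted p = 0.0441). LEU9 had 4.86 and 4.62 with FU at 40 min, against 2.85 and 3.09 in WT, also without overlap (0.67 ± 0.14, adjusted p = 0.0442). Both calls lay close to the threshold: with the median of ratios the adjusted p was 0.133 for LEU4 and 0.696 for LEU9, and 0 members were called by limma at either time. At an unadjusted p under 0.05 that scaling put 7 members up and 1 down at 100 min, and 0 up and 3 down at 40 min. limma-voom on the recovered reads called 1 member at 100 min and 0 at 40 min. Its unadjusted p-values under 0.05 went to 12 higher and 0 lower members at 100 min, and to 6 higher and 1 lower at 40 min. In the main limma fit they went to 11 higher and 0 lower at 100 min, and to 6 higher and 1 lower at 40 min. The share of all genes at that unadjusted p was not counted. LEU4 was lost without either replicate of FU at 100 min, of WT at 100 min or of the mutant at either time (0 members called), 2 members were called without either replicate of WT at 40 min, and 3 without either replicate of FU at 40 min. LEU9 was kept without replicate 1 of FU at 40 min, and 0 members were called without any other of the 12 libraries.

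Several histidine and lysine genes had large differences with FU at 100 min that did not pass. HIS5 had 1.59 and 1.54 with FU, against 0.656 and 0.511 in WT (1.42 ± 0.38, adjusted p = 0.0868), and HIS3 had 3.22 and 3.10 with FU, against 1.34 and 1.12 in WT (1.36 ± 0.33, adjusted p = 0.0687). LYS1 had 1.21 and 1.08 with FU, against 0.386 and 0.300 in WT (1.71 ± 0.51, adjusted p = 0.106). In all 3 the groups did not overlap, but neither did they in most other members in this comparison. TRP1, for instance, was without overlap at a difference of 0.30 (adjusted p = 0.392 by limma). LYS9 had 3.78 and 3.05 with FU at 100 min, against 2.21 and 1.69 in WT (0.81 ± 0.25, adjusted p = 0.119), and 2.37 and 1.63 with FU at 40 min, against 3.41 and 2.56 in WT (-0.59 ± 0.25, adjusted p = 0.169). GCN4 had 24.0 and 32.7 with FU at 100 min, against 14.3 and 16.7 in WT (0.86 ± 0.27, adjusted p = 0.124), and 23.6 and 33.0 with FU at 40 min, against 18.3 and 28.7 in WT (0.28 ± 0.27, adjusted p = 0.491). The GCN4 groups overlapped at 40 min and not at 100 min.

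The rrp6 and FU comparisons use the same WT libraries, so their likeness is not an independent result. FU-treated cells and the mutant were also set directly against each other, on the same rrp6 libraries as above. At 100 min 4 members were higher with FU than in the mutant and 3 were lower, where 6.38% of all genes were higher and 16.4% lower. At 40 min 3 members were higher with FU and 1 was lower, where 4.58% of all genes were higher and 9.28% lower.

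LYS9 had 3.78 and 3.05 with FU at 100 min, against 1.15 and 1.07 in the mutant (1.60 ± 0.25, adjusted p = 0.00103), and 2.37 and 1.63 with FU at 40 min, against 0.783 and 0.593 in the mutant (1.51 ± 0.25, adjusted p = 0.00213). LEU2 had 0.534 and 0.571 with FU at 100 min, against 0.203 and 0.245 in the mutant (1.27 ± 0.24, adjusted p = 0.00266). These 3 differences were called in every alternative run. ILV5 had 26.2 and 34.5 with FU at 100 min, against 15.1 and 18.1 in the mutant (0.86 ± 0.23, adjusted p = 0.0131), and 33.8 and 25.1 with FU at 40 min, against 16.4 and 17.3 in the mutant (0.79 ± 0.23, adjusted p = 0.0244). BAT2, the cytosolic branched-chain transaminase, had 1.28 and 1.82 with FU at 100 min, against 0.699 and 0.854 in the mutant (0.97 ± 0.23, adjusted p = 0.00758). Its mitochondrial paralog BAT1 had 2.90 and 3.06 with FU, against 2.26 and 2.25 in the mutant (0.40 ± 0.25, adjusted p = 0.224). In these genes no value with FU overlapped a value of the mutant.

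LEU4 was higher with FU at 40 min, with 3.61 and 2.53, against 1.82 and 1.25 in the mutant (1.00 ± 0.25, adjusted p = 0.0127), and at 100 min it had 7.74 and 9.85 with FU, against 8.07 and 7.76 in the mutant, with overlap. TRP1 was lower with FU, with 0.699 and 0.932 at 40 min, against 1.29 and 1.50 in the mutant (-0.78 ± 0.19, adjusted p = 0.0136), and 0.629 and 0.813 at 100 min, against 1.02 and 1.07 in the mutant (-0.54 ± 0.19, adjusted p = 0.0493). HIS5 had 1.59 and 1.54 with FU at 100 min, against 4.50 and 2.41 in the mutant (-1.07 ± 0.38, adjusted p = 0.047), and LEU9 had 3.56 and 3.81 with FU, against 4.99 and 5.69 in the mutant (-0.53 ± 0.14, adjusted p = 0.0123). The 4 lower calls were lost with the median of ratios, which gave 6 higher and 0 lower at 100 min and 5 higher and 0 lower at 40 min. Among the 5725 genes tested, that scaling gave 564 higher and 677 lower at 100 min, and 352 higher and 415 lower at 40 min. Both ILV5 calls, the BAT2 call and the LEU4 call were among those lost without some libraries. At 40 min 1 member was called without replicate 1 of FU, 8 without replicate 2 of FU and 1 without replicate 2 of the mutant. At 100 min 4 members were called without either replicate of FU and 3 without replicate 1 of the mutant.

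**Figure D3:**
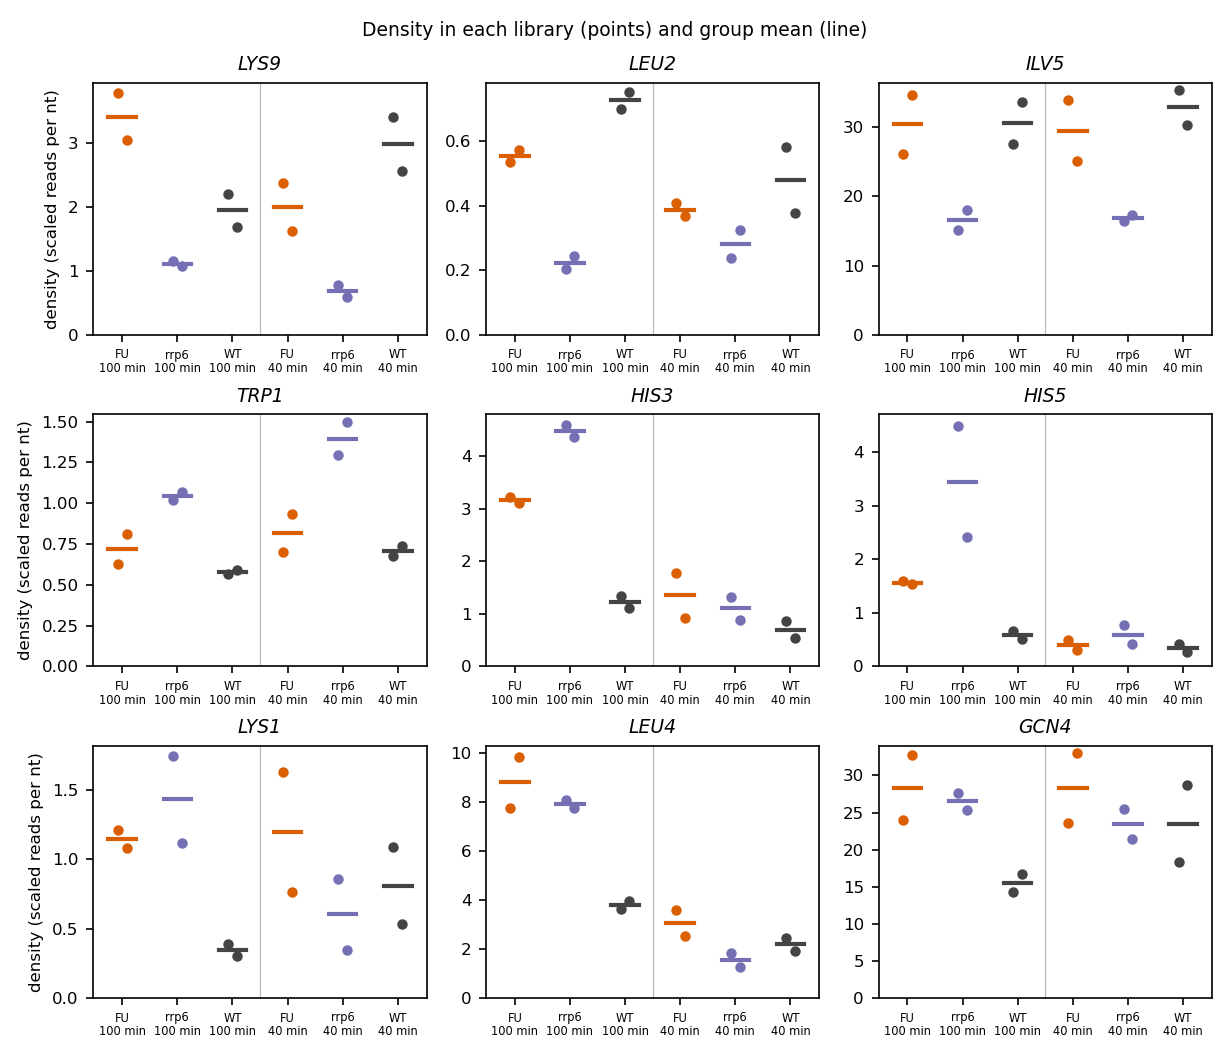
Density (scaled reads per nt, y axis from 0) of 9 members in each library (points) with the mean of each group (line). LYS9 and ILV5 are lowest in the rrp6 groups at both times, while LEU4 is at 7.74 or above with FU and in the mutant at 100 min and at 3.97 or below in the other 4 groups.

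HIS1, ILV6, TRP4 and TRP5 were higher at 100 min than at 40 min in all 3 conditions, and no member was called lower. With FU 6 members rose, in the mutant 8 and in WT 4. Among all genes 2.41% were higher and 2.9% lower with FU, 1.55% higher and 1.01% lower in the mutant, and 2.32% higher and 1.43% lower in WT. The share of members called higher was above that of all genes in each, which describes the list and was not tested. Of 39 further amino acid synthesis genes, 5 (12.8%) were called higher with FU, 8 (20.5%) in the mutant and 7 (17.9%) in WT. In WT 2 of these (5.13%) were called lower. Shares above that of all genes were thus not particular to the members. The members' median change was 0.21 with FU, 0.69 in the mutant and 0.02 in WT, where the median gene stood at -0.13 with FU, -0.05 in the mutant and -0.06 in WT.

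HIS1 had densities of 10.5 and 9.33 at 100 min with FU, against 3.53 and 2.80 at 40 min (1.65 ± 0.22, adjusted p = 0.00967). In the mutant HIS1 had 12.6 and 12.3 at 100 min, against 3.56 and 2.34 at 40 min (2.11 ± 0.22, adjusted p = 0.00515). In WT it had 9.12 and 7.82 at 100 min, against 2.57 and 2.79 at 40 min (1.65 ± 0.22, adjusted p = 0.00649). No 100 min value overlapped a 40 min value. ILV6, the regulatory subunit of acetolactate synthase, had 9.50 and 11.2 at 100 min with FU, against 6.03 and 4.83 at 40 min (0.94 ± 0.19, adjusted p = 0.031). In the mutant ILV6 had 9.79 and 10.3 at 100 min, against 4.17 and 3.94 at 40 min (1.31 ± 0.19, adjusted p = 0.0148), and in WT 7.09 and 8.42 at 100 min, against 4.42 and 3.49 at 40 min (0.97 ± 0.19, adjusted p = 0.0314). ILV2, the catalytic subunit of the same enzyme, did not follow: its log2 changes were -0.09 with FU, 0.12 in the mutant and -0.07 in WT, and none passed.

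TRP4, the anthranilate phosphoribosyltransferase, had 1.50 and 1.75 at 100 min with FU, against 0.914 and 0.692 at 40 min (1.02 ± 0.23, adjusted p = 0.0431). In the mutant TRP4 had 1.87 and 1.79 at 100 min, against 0.687 and 0.472 at 40 min (1.66 ± 0.23, adjusted p = 0.0115), and in WT 1.18 and 1.38 at 100 min, against 0.581 and 0.479 at 40 min (1.25 ± 0.23, adjusted p = 0.0243). All 3 rises were without overlap. TRP5, the tryptophan synthase, had 2.44 and 3.38 at 100 min with FU, against 1.69 and 1.23 at 40 min (0.99 ± 0.23, adjusted p = 0.0478). In the mutant TRP5 had 2.87 and 2.78 at 100 min, against 1.19 and 0.980 at 40 min (1.38 ± 0.23, adjusted p = 0.0225), and in WT 2.02 and 2.44 at 100 min, against 1.02 and 0.825 at 40 min (1.27 ± 0.23, adjusted p = 0.0243). TRP1, alone in its pathway, had negative log2 changes of -0.17 with FU, -0.41 in the mutant and -0.28 in WT, none of which passed.

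HIS5 and LEU4 rose with FU and in the mutant. HIS5 had 1.59 and 1.54 at 100 min with FU, against 0.490 and 0.316 at 40 min (1.96 ± 0.38, adjusted p = 0.029), and in the mutant 4.50 and 2.41 at 100 min, against 0.766 and 0.423 at 40 min (2.51 ± 0.38, adjusted p = 0.0184). In WT HIS5 had 0.656 and 0.511 at 100 min, against 0.418 and 0.274 at 40 min (0.75 ± 0.38, adjusted p = 0.364). LEU4 had 7.74 and 9.85 at 100 min with FU, against 3.61 and 2.53 at 40 min (1.53 ± 0.25, adjusted p = 0.0178). In the mutant LEU4 had 8.07 and 7.76 at 100 min, against 1.82 and 1.25 at 40 min (2.38 ± 0.25, adjusted p = 0.00515), and in WT 3.64 and 3.97 at 100 min, against 2.46 and 1.93 at 40 min (0.80 ± 0.25, adjusted p = 0.135). No 100 min value of either gene overlapped a 40 min value of its condition. HIS3 had 4.59 and 4.35 at 100 min in the mutant, against 1.33 and 0.885 at 40 min (2.03 ± 0.33, adjusted p = 0.0216), and TRP3 had 2.06 and 2.03 at 100 min, against 0.895 and 0.763 at 40 min (1.30 ± 0.22, adjusted p = 0.0246). HIS4, whose protein carries several activities of the histidine pathway, had a wide replicate spread at 40 min, 1.41 and 0.493 with FU, 0.807 and 0.507 in the mutant and 0.962 and 0.388 in WT. At 100 min HIS4 had 3.53 and 3.55 with FU, 3.17 and 3.04 in the mutant and 1.93 and 1.51 in WT. Its rises of 2.07 with FU and 2.25 in the mutant did not pass (adjusted p = 0.0568 with FU and 0.0633 in the mutant).

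Of the 8 members called higher in at least 1 condition, 5 hold the full Gcn4 motif and 3 (HIS3, TRP4 and TRP5) do not. HIS3 and TRP4 hold the shorter core. Of the 15 members with the full motif, 9 had a positive change in all 3 conditions, and of the 16 without it, 5. The share of all genes with a positive change in all 3 was not counted. With the median of ratios every one of the calls over time was kept, and 12 members were called with FU, 10 in the mutant and 5 in WT. Among the 5725 genes tested, that scaling gave 228 higher and 80 lower with FU. It gave 130 higher and 48 lower in the mutant, and 205 higher and 99 lower in WT. The member counts rest on few libraries. With FU 0 members were called without replicate 2 of FU at 40 min or either replicate of FU at 100 min, 11 without replicate 1 of FU at 40 min, 2 without either replicate of WT at 100 min and 3 without any 1 replicate of the mutant. In the mutant 0 were called without its replicate 2 at 40 min or either replicate at 100 min, and 3 without its replicate 1 at 40 min. In WT 0 were called without either of its replicates at 100 min, and 1 without its replicate 2 at 40 min or either replicate of the mutant at 100 min. In the fits with 0 calls the lone library left in a group is assumed to vary like the other groups.

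**Figure D4:**
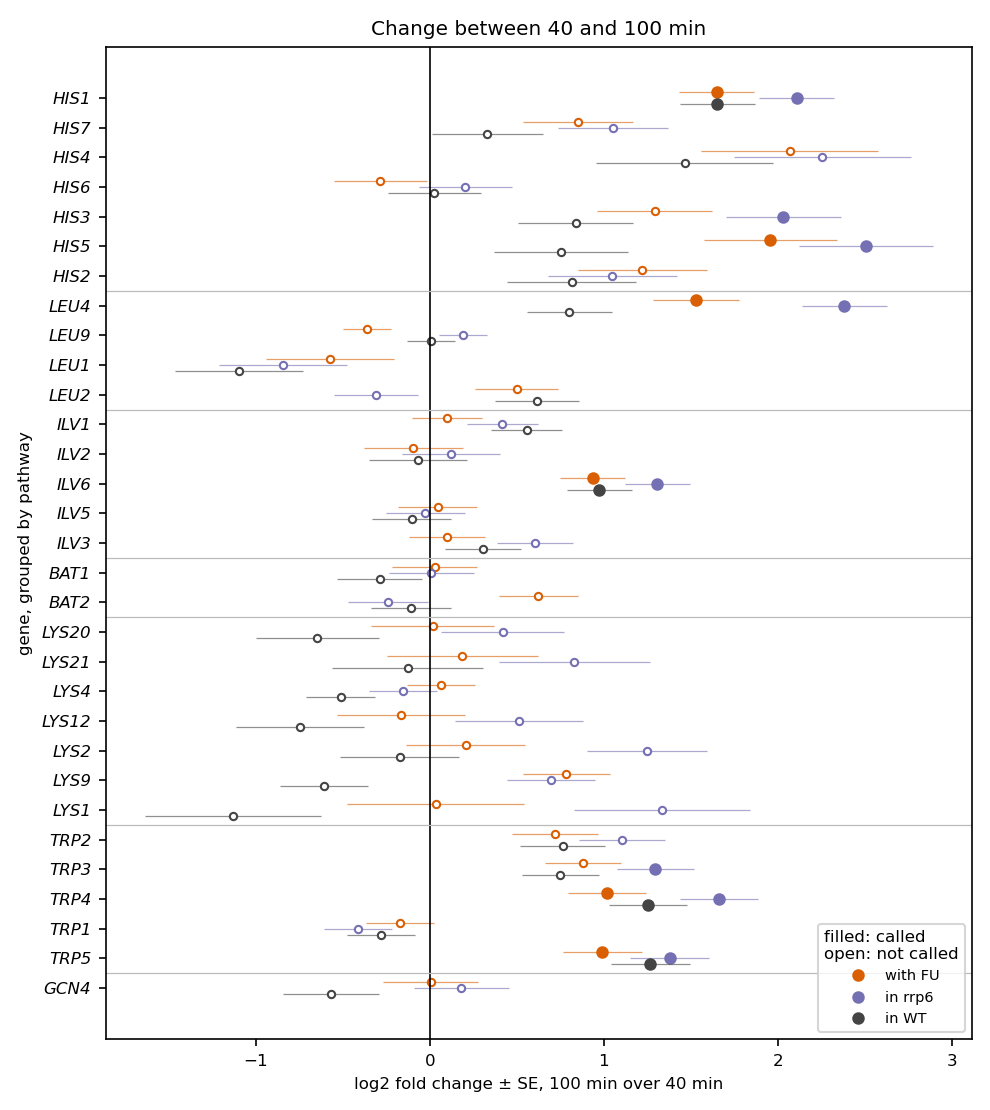
Log2 fold change of each member between 40 and 100 min (x axis, bars are SE) with FU, in the mutant and in WT, with filled points for members called at an adjusted p under 0.05. HIS1, ILV6, TRP4 and TRP5 are filled in all 3 conditions, and the lysine genes lie to the left of 0 in WT.

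The lysine genes were not called over time in any condition (adjusted p = 0.102 or higher), and with the median of ratios 1, LYS9, was higher with FU. In WT all 7 had negative changes, from -1.13 for LYS1 to -0.13 for LYS21, and in the mutant their median change was 0.69, against -0.61 in WT. LYS1 had 1.74 and 1.12 at 100 min in the mutant, against 0.855 and 0.349 at 40 min, and in WT 0.386 and 0.300 at 100 min, against 1.09 and 0.530 at 40 min. The difference of these changes between the mutant and WT, the interaction, was positive for all 7 lysine genes, from 0.36 for LYS4 to 2.46 ± 0.72 for LYS1 (adjusted p = 0.426). Over all 31 members the rrp6 by time interaction gave 0 calls by limma and 0 by limma-voom, and each gave unadjusted p-values under 0.05 for 7 positive and 1 negative difference. The FU by time interaction gave 0 calls by both, with unadjusted p-values under 0.05 for 2 positive differences by limma and 1 by limma-voom. Among all genes limma called the rrp6 interaction positive for 0.0175% and negative for 0.122%, at an adjusted p under 0.05. The FU interaction was called positive for 0.0175% and negative for 0.175%. These shares stand beside the 0 calls among members, and the share of all genes at the unadjusted p was not counted. With a replicate block and the median of ratios together, 1 member was called in the FU by time interaction.

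Among the paralog pairs, LEU4 and LEU9 share 79.4% of their aligned coding bases and no run of 50 bases, the read length, so their reads can be told apart. Over time LEU9 was not called in any condition, with 3.56 and 3.81 at 100 min with FU, against 4.86 and 4.62 at 40 min. LEU9 had 4.99 and 5.69 at 100 min in the mutant, against 4.74 and 4.59 at 40 min. In WT it had 2.93 and 3.02 at 100 min, against 2.85 and 3.09 at 40 min, so LEU9 was the higher of the pair at 40 min in every library and LEU4 at 100 min. LYS20 and LYS21, the homocitrate synthases, are 91.6% identical and share a run of 278 bases, so the split of reads between them is uncertain. LYS20 had 2.94 and 2.49 in the mutant at 100 min, against 2.50 and 1.96 in WT, and 2.44 and 1.66 in the mutant at 40 min, against 4.60 and 2.62 in WT. LYS21 had 2.57 and 2.22 in the mutant at 100 min, against 1.69 and 1.39 in WT, and 1.52 and 1.18 in the mutant at 40 min, against 2.30 and 1.22 in WT, and neither gene passed at either time. BAT1 and BAT2 are 72.2% identical with a longest shared run of 17 bases.

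Transcripts on the opposite strand of members rose in the mutant. The table lists 18 such features over 14 members, of which 17 could be tested; they cover 0.727% to 100% of the gene, overlap each other in part and are not independent. In the mutant 17 were higher at 40 min and 15 at 100 min, where 76% of all features other than genes were higher at 40 min and 79.5% at 100 min, so the share over members was near the background at 100 min and above it at 40 min. With FU 0 of the 17 were called by limma at either time, where 3.73% of such features were higher at 40 min and 1.55% at 100 min. Their median difference with FU was 0.64 at 40 min and 0.31 at 100 min.

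CUT475, a cryptic unstable transcript that covers 29.8% of LYS20 on the other strand, had 0.795 and 1.21 in rrp6 libraries at 100 min, against 0.0322 and 0.0304 in WT libraries (4.52 ± 0.48, adjusted p = 0.000084). At 40 min CUT475 had 1.01 and 1.53 in rrp6 libraries, against 0.0329 and 0.0865 in WT libraries (4.24 ± 0.48, adjusted p = 0.000133). LYS20 itself stood at 2.94 and 2.49 in the mutant at 100 min, the density of CUT475 being the lower in both libraries. In WT libraries LYS20 stood at 1.96 to 4.60 and CUT475 at 0.0304 to 0.0865, so most reads of LYS20 were not counted for the opposite strand. Whether a small part of them was counted there was not tested. CUT037, over 40.4% of HIS7, had 0.138 and 0.217 in rrp6 libraries at 100 min, against 0.00492 and 0.0174 in WT libraries (3.06 ± 0.58, adjusted p = 0.0016). SUT786 covers all of HIS3 and had 0.121 and 0.159 in rrp6 libraries at 100 min, against 0.0351 and 0.0455 in WT libraries (1.53 ± 0.35, adjusted p = 0.0047). SUT1389, over 89.6% of HIS1, had 0.0361 and 0.0724 in rrp6 libraries at 100 min, against 0.0124 and 0.00753 in WT libraries (1.54 ± 0.34, adjusted p = 0.00356). The members with a raised transcript on the opposite strand numbered 11 at 100 min, of which 7 were higher in the mutant, 0 lower and 4 not called, and with the median of ratios 1 higher, 0 lower and 10 not called. At 40 min they numbered 13, of which 2 were higher, 0 lower and 11 not called, and with the median of ratios 0 higher, 3 lower (LEU4, LYS20 and LYS2) and 10 not called. The direction of the genes beside these transcripts thus depended on the time and on the scaling. Over all 31 members 12 were higher and 3 lower at 100 min, and 2 higher and 3 lower at 40 min. Among all genes 34.5% were higher at 100 min and 32.3% at 40 min. YDR008C, a dubious reading frame over 39.3% of TRP1, rose by 2.13 ± 0.35 at 100 min (adjusted p = 0.000817), where TRP1 also rose.

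**Figure D5:**
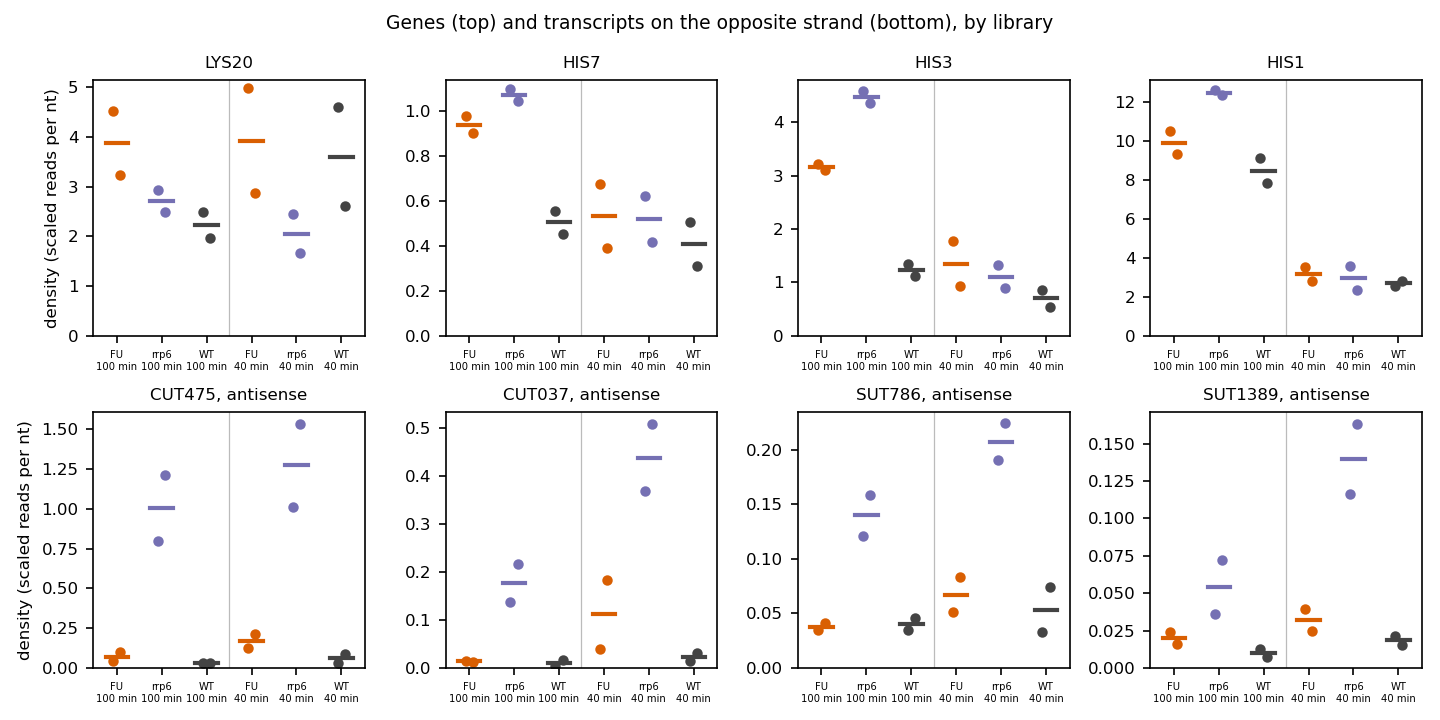
Density (scaled reads per nt, y axes from 0) of 4 members and of the transcript on their opposite strand in each library (points) with the mean of each group (line). CUT475 reached 0.795 to 1.53 in the rrp6 libraries, against 0.0304 to 0.0865 in the WT libraries.

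Of 7 features tested that reach into the 500 bases upstream of a member on the same strand, 5 were higher in the mutant at 100 min and 4 at 40 min, where 79.5% and 76% of all features other than genes were. The 5 members beside them at 100 min were LEU2, which was lower, TRP3, which was higher, and LEU1, BAT1 and TRP2, which were not called. XUT0091, a transcript sensitive to the exonuclease Xrn1 upstream of LEU2, had 0.164 and 0.104 in rrp6 libraries at 100 min, against 0.0087 and 0.0451 in WT libraries (2.05 ± 0.60, adjusted p = 0.015), beside the lower LEU2. CUT702, upstream of TRP3, had 0.267 and 0.305 in rrp6 libraries at 100 min, against 0.00667 and 0.00942 in WT libraries (3.89 ± 0.38, adjusted p = 0.000056), beside the higher TRP3. With the median of ratios 1 of these 5 members was lower, 0 higher and 4 not called.

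Other genes of the same control system were read from lists, whose shares stand beside the 34.5% of all genes that were higher in the mutant at 100 min and the 32.3% at 40 min. With the median of ratios 924 of 5725 genes were higher and 893 lower at 100 min, and 703 higher and 760 lower at 40 min. Of 13 activators and repressors of single pathways, 8 (61.5%) were higher in the mutant at each time and none was lower, with counts of 7 at 100 min and 6 at 40 min under the median of ratios. LYS14, the activator of lysine genes, rose by 1.58 ± 0.16 at 100 min (adjusted p = 0.000065), and LEU3 by 1.10 ± 0.17 (adjusted p = 0.000604). In the mutant at that time LYS9, LEU2 and ILV5 were lower, and LYS1, LYS12, LYS2, LEU4 and LEU9 were higher. Of 19 genes that control Gcn4, 8 (42.1%) were higher in the mutant at 100 min and 11 (57.9%) at 40 min, and with the median of ratios 2 were higher and 3 lower at 100 min and 4 higher and 1 lower at 40 min. PCL5, a cyclin that targets Gcn4 for breakdown and is itself a Gcn4 target, rose by 2.06 ± 0.18 in the mutant at 100 min (adjusted p = 0.00004), and GCN2 rose by 1.67 ± 0.22 (adjusted p = 0.000264). With FU at 100 min PCL5 rose by 1.03 ± 0.18 (adjusted p = 0.0263, 0.227 with the median of ratios).

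Of 39 further amino acid synthesis genes, 14 (35.9%) were higher and 6 lower in the mutant at 100 min, and 11 (28.2%) higher and 5 lower at 40 min, upward shares near those of all genes, and with the median of ratios 11 were higher and 11 lower at 100 min and 2 higher and 8 lower at 40 min. With FU 5 (12.8%) were higher and 1 (2.56%) lower at 100 min, where 1.94% of all genes were higher and 0.769% lower. With the median of ratios 3 were higher and 1 lower, where 29 of the 5725 genes tested were higher and 59 lower. ARG3 and ARG1, both of arginine synthesis, rose with FU at 100 min by 3.07 ± 0.35 and 2.68 ± 0.37 (adjusted p = 0.00399 and 0.00946), larger differences than that of any of the 31 members with FU. GDH1, a glutamate dehydrogenase that makes glutamate from ammonium, fell by 2.24 ± 0.24 with FU at 100 min (log2 fold change -2.24, adjusted p = 0.0038) and by 2.90 ± 0.24 in the mutant (log2 fold change -2.90, adjusted p = 0.00003). Of 16 amino acid permease genes, 2 were lower with FU at 100 min, AGP1 (-1.41 ± 0.20, adjusted p = 0.0101) and MUP1 (-1.32 ± 0.19, adjusted p = 0.0101), and both were also lower in the mutant at that time.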

How the data were processed

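Strand-specific total RNA libraries (TruSeq, after removal of rRNA) were sequenced as paired 50 nt reads, per the labels' protocols, and TopHat is named in the submitters' processing notes without a version. The authors deposited a signal per feature, a read density: reads divided by length, times 1 factor per library. Density times length gave whole reads for 100% of the values (tolerance 0.001), and whether counting used strand is not stated. Here log2(density + 0.0120173), the pseudocount being the 10th percentile of values above 0, was fitted with limma 3.58.1 in R 4.3.3 (1 mean per group, all 12 libraries, 6 residual degrees of freedom, variance trend, two-sided). Features at or above the pseudocount in 2 libraries were kept (11485, with 5725 genes). Benjamini-Hochberg adjustment ran over all of these in each of 11 comparisons, and an adjusted p under 0.05 was called. Fold changes on this scale understate changes of low features. Overlap was judged on 2 libraries a group, where groups often separate without a change. The share of all genes without overlap was not counted. The named genes are all members called in a comparison, GCN4 and the paralogs. From the other lists come some of the 3 called genes with the smallest adjusted p in a comparison. SER3 and ARG81 are not described, though smaller in adjusted p by limma than GDH1 and LEU3 in the mutant at 100 min. Members and lists were chosen with earlier results of these data known. HIS4, ILV2, XUT0091, CUT702 and the uncalled values with FU were named after their values were seen. Alternatives were another pseudocount, no filter, median of ratios, quantile normalization, limma-voom on recovered reads, genes only, a replicate block, and leaving out each library. The fit was tested on simulated data with independent libraries and no shared replicate difference, so that test does not cover the library differences described above. Sequences were read with Biopython 1.88, and figures drawn with matplotlib 3.10.9.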

Additional observations from a re-analysis of the deposited data

How the results depend on the processing

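No call of a member changed direction under any alternative. Of 51 calls, 30 held under all alternatives with all libraries, 13 without each library in turn and 7 under both. For FU against WT at 40 min the count of 1 became 0 with the larger pseudocount, the median of ratios, quantile normalization, limma-voom and genes only, and at 100 min 0 with the median of ratios and with quantile normalization. For the mutant against WT the count became 8 at 40 min and 7 at 100 min with the median of ratios, and 9 at 100 min with quantile normalization. For FU against the mutant at 100 min it became 4 with quantile normalization. For 100 against 40 min it became 12 (median of ratios) and 10 (quantile) with FU, and 13 (quantile) in the mutant. Leaving out 1 library at a time gave 0 to 1 (FU, 40 min), 0 to 3 (FU, 100 min), 5 to 7 (mutant, 40 min), 6 to 19 (mutant, 100 min), 1 to 8 and 3 to 7 (FU against the mutant at 40 and 100 min), and 0 to 11 with FU, 0 to 11 in the mutant and 0 to 5 in WT for time.

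The labels do not say that a replicate number marks a shared batch. Deviations of same-numbered libraries from group means correlated at 0.169 to 0.869 over the 6 pairs among WT and FU groups, and at -0.356 to 0.319 over the 9 pairs with an rrp6 group, so the numbers go together in the data for WT and FU but not over all groups. With a replicate block the counts became 3 and 6 for FU against WT at 40 and 100 min, 9 for the mutant against WT at 40 min, and 13 with FU and 14 in the mutant for time. With the replicate block and the median of ratios together they became 2 for FU at 100 min, 10 for the mutant at 40 min, 10 for FU against the mutant at 40 min, 10 in WT, 13 with FU and 15 in the mutant for time, and 1 for the FU by time interaction. The causes of these shifts were not tested, and the shares of all genes called with a replicate block were not counted. With 2 libraries a group, differences near the threshold cannot be settled, and scaling to the sum over genes sets part of the calls in the mutant.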
